A study of Mus musculus with 6 samples.

Results

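Imprinted growth genes were followed in the colon of young mice whose intestinal epithelium lacked Indian hedgehog. The group was 10 genes that lie outside the imprinted Dlk1-Dio3 locus: Igf2, H19, Cdkn1c, Plagl1, Mest, Peg3, Grb10, Igf2r, Zim1 and Ndn. They were listed by name, with earlier results of these data known. Each gene was taken from a row of the expression table with that gene as its single symbol. This found 9 of the 10, out of 19938 genes tested. H19 had no such row and was not analysed here. The other 9 had 1 row each, and none was among the dimmest 30% of genes.

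The series held 3 control mice, labelled wild type, and 3 VilCre;Ihhflox/flox mice, with 1 Affymetrix Mouse Gene 1.0 ST array per mouse. In the mutants the villin promoter drives Cre recombinase in intestinal epithelium, where it deletes Ihh, which encodes the hedgehog ligand of the gut lining, while the other cells of the gut wall keep the gene. The labels do not say whether the controls carried Cre or floxed alleles, and they give the harvest as day 12 in one place and day 9 to day 12 in another. Mutant and control of the same number were littermates, so there were 3 litters. Values are on the log2 scale, and each change is mutant minus control, estimated with limma across all genes with the litter as a block. Errors beside a change are its standard error, and a gene passed at an adjusted p (Benjamini-Hochberg over 19938 genes) under 0.05. An unadjusted limma p under 0.05 was found for 3008 of the 19938 genes.

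Imprinted genes are expressed mainly from the copy inherited from 1 parent. Many of them set the growth of the fetus and the young animal, and their levels usually decline after birth. Genes read from the paternal copy, such as Igf2, Mest, Peg3 and Plagl1, tend to favour growth, whereas maternally read genes, such as Igf2r, Grb10, H19 and Cdkn1c, tend to restrain it. The arrays measured RNA from both copies together and gave no allele-specific value.

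Start-site sequence is shown for the 3 members with the largest changes in either direction (Mest, Igf2r and Plagl1) and for Peg3, the only member with a match to either motif searched. Each is the 250 bases before a RefSeq transcription start on build GRCm38.p6, read 5′ to 3′ on the gene's strand, in lower case with a motif match in capitals. The windows are Mest at chr6:30737803-30738052 (plus strand), Igf2r at chr17:12769707-12769956 (minus), Plagl1 at chr10:13090582-13090831 (plus) and Peg3 at chr7:6730420-6730669 (minus).
Mest: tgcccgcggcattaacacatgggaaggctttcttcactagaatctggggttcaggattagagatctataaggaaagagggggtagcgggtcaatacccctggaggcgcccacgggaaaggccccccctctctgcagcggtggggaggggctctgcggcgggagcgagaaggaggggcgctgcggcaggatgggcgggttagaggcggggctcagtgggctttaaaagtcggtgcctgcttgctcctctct
Igf2r: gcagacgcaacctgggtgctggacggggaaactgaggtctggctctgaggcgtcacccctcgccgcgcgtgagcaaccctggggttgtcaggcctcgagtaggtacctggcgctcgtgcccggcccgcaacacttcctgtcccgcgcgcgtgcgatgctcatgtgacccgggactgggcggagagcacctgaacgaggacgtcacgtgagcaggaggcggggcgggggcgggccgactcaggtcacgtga
Plagl1: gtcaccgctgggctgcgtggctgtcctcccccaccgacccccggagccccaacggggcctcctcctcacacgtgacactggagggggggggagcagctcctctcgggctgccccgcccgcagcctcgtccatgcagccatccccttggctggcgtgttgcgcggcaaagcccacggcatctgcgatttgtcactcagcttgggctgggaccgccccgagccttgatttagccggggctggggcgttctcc
Peg3: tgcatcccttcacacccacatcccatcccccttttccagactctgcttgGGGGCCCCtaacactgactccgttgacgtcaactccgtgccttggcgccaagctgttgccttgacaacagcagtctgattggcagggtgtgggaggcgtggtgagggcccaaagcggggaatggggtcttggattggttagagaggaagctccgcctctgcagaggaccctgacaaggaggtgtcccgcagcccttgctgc

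CpG, the dinucleotide that carries DNA methylation, was counted in each window. Igf2r held 27 CpG in 250 bases, Plagl1 19, Mest 14 and Peg3 8, against a median of 6 over 32851 RefSeq windows of the same length. As many or more were found in 8.56% of all windows for Igf2r, 19.7% for Plagl1, 29.4% for Mest and 43.0% for Peg3. In all, 8 members had 14 windows, since Igf2, Mest and Grb10 have several starts. The Mest windows that begin at 30737800 and 30737803 overlap almost wholly and were both counted. At least 6 CpG were held by 12 of the 14 windows, and by 50.4% of all windows. The highest count was 40, at the upstream start of Grb10, and the lowest was 1, at the farthest upstream start of Igf2. On either strand, GACCACCCA, the core motif of the hedgehog factors of the Gli family, was found in 0 of the 14 windows and in 0.225% of all windows. GGGGCCCC, which reads the same on both strands and is a motif of the zinc finger protein Plagl1, was found in 1 of the 14, that of Peg3, and in 0.889% of all windows. No window held both motifs. A match is a description of the letters and not a measured site. Cdkn1c and H19 had no window in the table.

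The targeted gene and the pathway were checked first. The Ihh row read 8.50, 8.54 and 8.68 in the controls, numbered 1 to 3 here and throughout, against 8.37, 8.22 and 8.22 in their mutant littermates, a difference that did not pass (adjusted p = 0.139). Ptch1, a hedgehog receptor that the pathway induces, fell by 1.44 ± 0.09 (adjusted p = 0.000493). Of 9 measured genes that mark colon, none was among the dimmest 30% of genes, against 4 of 10 genes that mark small intestine. Of these, Car4 fell by 1.40, Aqp8 fell by 1.29, and Fabp2, a small intestinal fatty acid binding protein, rose by 0.73. The colon genes did not move together: 5 estimates were above 0 and 4 below, with a median change of 0.07. Car1 (0.63), Slc26a3 (0.51) and Muc2 (0.35) were higher in each mutant than in its littermate, without overlap of the groups. They did not pass (adjusted p from 0.0570 to 0.0755). All 10 small intestine estimates were above 0. Xist, the RNA of the inactive X chromosome, was high in control 1, mutant 2 and mutant 3 (11.96, 12.03 and 11.92) and low in the other arrays (5.83 to 6.41), so the 2 mice of every litter differed in it, and litter 1 ran opposite to litters 2 and 3. The labels do not give the sex of the mice.

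Of the 9 measured members 1 rose, Igf2r, 1 fell, Mest, and 7 did not pass. This is 22.2% of the members, against 3.77% of all genes tested, 1.66% higher and 2.11% lower in mutants, and rests on 2 genes. The median change of the members was 0.01, as it was over all genes (0.01). In 5 members the mutant differed from its littermate in the same direction in 3 of 3 litters, which was also true of 35.9% of all genes. In 3 members, Igf2r, Mest and Peg3, the control and mutant values did not overlap, against 19.8% of all genes. Within litters the members had median differences of -0.26, 0.26 and 0.03 (litters 1 to 3). Mest had the lowest difference of the 9 in each litter, and the highest was that of Igf2r in litter 1 and of Plagl1 in litters 2 and 3.

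**Figure D1:**
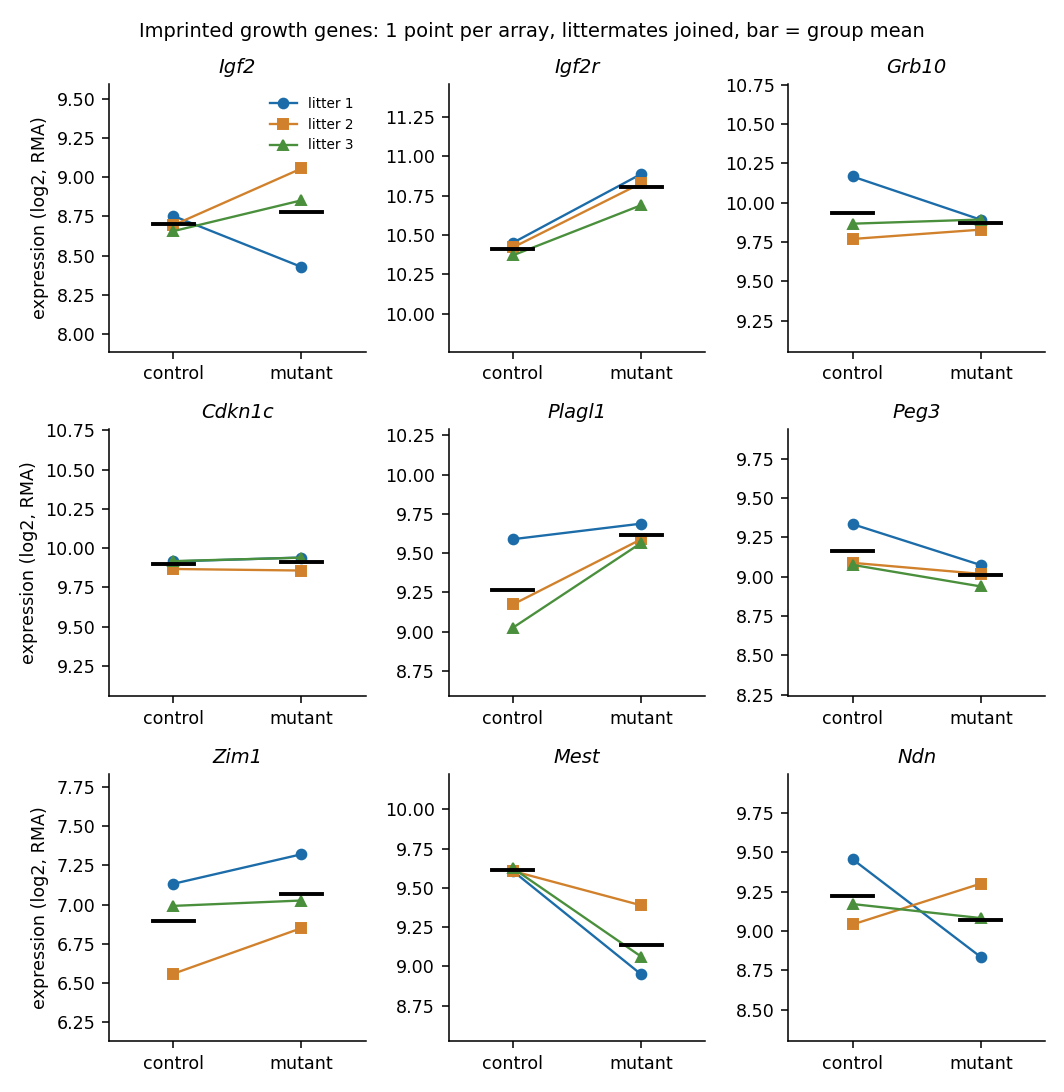
Expression of the 9 measured genes on the log2 scale (vertical axis, 1.7 log2 units in each panel) in control and mutant colon, with 1 point per array, lines that join littermates and bars at group means. The 3 Igf2r values of mutants lie above all controls and the 3 Mest values below all controls, while Igf2 and Ndn move in opposite directions in different litters.

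Igf2 encodes insulin-like growth factor 2, a fetal growth factor that signals through the receptors Igf1r and Insr. Its level in the controls was 8.75, 8.69 and 8.66, against 8.43, 9.05 and 8.85 for mutants 1 to 3. The controls were close together (SD 0.0494, n = 3), the mutants were spread on both sides of them (SD 0.320, n = 3), and the groups overlapped. The differences by litter were -0.33, 0.36 and 0.20. The estimate was 0.08 ± 0.13, with a 95% interval from -0.23 to 0.38, and did not pass (adjusted p = 0.877). The sign of the Igf2 difference was that of the Xist difference in each litter. In a fit that also held Xist, the Igf2 estimate was -0.04 ± 0.08 (adjusted p = 0.831). The Xist difference was nearly the same in litters 2 and 3 and opposite in litter 1. Here and below, this fit therefore cannot tell Xist from anything else particular to litter 1.

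Igf2r encodes the receptor that binds insulin-like growth factor 2 and carries it to lysosomes for breakdown, and that also sorts lysosomal enzymes. Controls stood at 10.45, 10.42 and 10.37, and mutants at 10.89, 10.83 and 10.69. Every mutant lay above every control, and the differences in litters 1 to 3 were 0.44, 0.41 and 0.32. Igf2r rose by 0.39 ± 0.08, or 1.31-fold (adjusted p = 0.0415). The estimate stayed between 0.36 and 0.42 under 13 other settings, but passed in 8 of them, and with 2 litters it did not pass: the adjusted p was 0.0785 without litter 1, 0.126 without litter 2 and 0.118 without litter 3.

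Airn, a long noncoding RNA that starts inside Igf2r and silences the paternal copy of that gene, was 9.72, 9.62 and 9.58 in controls and 10.17, 9.97 and 9.79 in mutants. Mutants lay above controls without overlap, and the difference of 0.34 ± 0.09 did not pass (adjusted p = 0.0828), though it did once Xist entered the fit (adjusted p = 0.0448). The spans of Airn and Igf2r overlap in the RefSeq table, and the strand the probes read is not given in the sources used here, so their values may not be separate. The other 6 measured neighbours of Igf2r (Tcp1, Slc22a2, Wtap, Pnldc1, Mas1 and Plg) did not pass, with changes from -0.06 to 0.11.

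Grb10 encodes an adaptor that binds the insulin and insulin-like growth factor 1 receptors and dampens their signal. It was 10.17, 9.77 and 9.87 in controls and 9.89, 9.83 and 9.89 in mutants, so control 1 was the highest array and the others lay within a narrow range. The difference was -0.06 ± 0.10 and did not pass (adjusted p = 0.857). Its 4 measured neighbours (Ikzf1, Ddc, Cobl and Fignl1) ranged from -0.20 to 0.12, and 0 of them passed in limma, also at an unadjusted p under 0.05 (0 of 4).

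Cdkn1c encodes p57, an inhibitor of cyclin-dependent kinases that holds cells out of the cycle. It varied least of the members: 9.92, 9.87 and 9.92 in controls and 9.94, 9.86 and 9.94 in mutants. The difference was 0.01 ± 0.08, with a 95% interval from -0.17 to 0.19 (adjusted p = 0.972). Of 14 measured genes known as partners, relatives or targets of Cdkn1c, Plagl1, Ndn or Peg3, 0 rose, 1 fell and 13 did not pass. The 1 that fell was Cdkn2b, the inhibitor p15, at 9.36, 9.40 and 9.24 in controls and 8.59, 8.39 and 8.22 in mutants (-0.93 ± 0.09, adjusted p = 0.00253). Cdkn1b, the close relative p27, stood at 0.05 ± 0.08. Of 9 measured cell cycle genes 0 passed in limma, also at an unadjusted p under 0.05 (0 of 9), with changes from -0.14 to 0.07.

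Plagl1, also called Zac1, encodes a zinc finger transcription factor that regulates other imprinted genes and can arrest cells. It was 9.59, 9.17 and 9.03 in controls and 9.69, 9.59 and 9.57 in mutants. The 3 mutants were alike, and the lower level of controls came from controls 2 and 3, while control 1 lay within the range of mutants. The differences were 0.10, 0.42 and 0.54 in litters 1 to 3, with an estimate of 0.35 ± 0.10 that did not pass (adjusted p = 0.127). It passed under 2 of 13 other settings, with adjusted p = 0.0389 without litter 1 and 0.0275 with array weights. In the fit with Xist it was 0.28 ± 0.07 (adjusted p = 0.0930). Of 5 measured neighbours 0 passed in limma and 1 had an unadjusted p under 0.05, Ltv1, a ribosome assembly factor gene (0.36 ± 0.09, adjusted p = 0.0669).

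Peg3 and Zim1 are neighbouring zinc finger genes, read from the paternal and the maternal copy. Peg3 was 9.33, 9.09 and 9.08 in controls and 9.07, 9.02 and 8.94 in mutants, and Zim1 was 7.13, 6.56 and 6.99 in controls and 7.32, 6.85 and 7.03 in mutants. Each mutant had less Peg3 than its littermate, but the lowest control and the highest mutant were nearly equal (9.08 against 9.07). Zim1 was higher in the mutant of each litter, but differed more between litters than between littermates. Neither passed, with -0.16 ± 0.08 for Peg3 (adjusted p = 0.459) and 0.17 ± 0.09 for Zim1 (adjusted p = 0.430). Of their neighbours, Usp29 (-0.07) and Aurkc (0.01) were measured and did not pass.

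Mest, also called Peg1, encodes an enzyme of the alpha/beta hydrolase family that is abundant in embryonic mesoderm and fat. Controls stood at 9.61, 9.61 and 9.63, and mutants at 8.95, 9.39 and 9.06. The controls were nearly equal (SD 0.0103), every mutant lay below them, and mutant 2 was the nearest. The differences in litters 1 to 3 were -0.66, -0.22 and -0.56. Mest fell by 0.48 ± 0.10, which is 1.39-fold lower in mutants (adjusted p = 0.0482). In a whole colon, fewer cells of a type and less RNA per cell cannot be told apart. The call was near the threshold: it held under 6 of 13 other settings, with an adjusted p of 0.0547 without the litter block, 0.125 without litter 1, 0.161 without litter 3 and 0.00674 without litter 2. The estimate was below 0 in each of the 13, from -0.61 to -0.39.

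Markers of several cell types of the gut wall moved in the same direction as Mest. Of 12 smooth muscle genes 8 fell, and their mean level was 11.15 to 11.24 in controls and 10.44 to 10.88 in mutants. Of 12 blood endothelium genes 7 fell, with a mean level of 8.36 to 8.59 in controls and 7.92 to 8.12 in mutants. Of 12 fibroblast genes 3 fell, Mfap5 (-1.09), Postn (-0.57) and Pdgfra (-0.42). The mean level of the 12 was 10.79 to 10.89 in controls and 10.51 to 10.73 in mutants. None of these lists had a gene that passed in the upward direction. All 12 smooth muscle and all 12 endothelium estimates were below 0, against 8 of 12 for fibroblasts. The other 4 fibroblast estimates were above 0, among them Dcn (0.11), with each mutant above its littermate and no overlap. Under 13 other settings 0 to 9 smooth muscle, 0 to 9 endothelium and 0 to 5 fibroblast genes passed. By litter, the median change was -0.76, -0.57 and -0.30 for smooth muscle, -0.46, -0.40 and -0.38 for endothelium and -0.29, -0.03 and -0.05 for fibroblasts. The smallest median was in litter 3 for smooth muscle. Litters 2 and 3 were nearly equal for endothelium and for fibroblasts, whereas Mest differed by -0.22 in litter 2 and -0.56 in litter 3. The mean level of 10 epithelial genes overlapped between groups (11.06 to 11.12 against 11.05 to 11.18), with 5 estimates above 0 and 5 below. Of these 10 genes 1 passed, Krt18, which rose by 0.60 (adjusted p = 0.00774). Krt20 was lower in mutants by 0.43 and did not pass (adjusted p = 0.0837). The part of these cell types in the change of Mest was not tested.

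Of 7 measured neighbours of Mest 0 passed in limma, also at an unadjusted p under 0.05 (0 of 7), and changes ran from -0.05 to 0.15. Copg2, whose span overlaps that of Mest in the RefSeq table, stood at 0.05 ± 0.08. The microRNA gene Mir335 lies within the span of Mest and has a row of its own on the array. It was named here after its values were seen. Its 2 mature sequences, from RefSeq on GRCm38.p6, are given with the seed (bases 2 to 8, which pair with targets) in capitals.
mmu-miR-335-5p: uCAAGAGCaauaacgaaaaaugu
mmu-miR-335-3p: uUUUUCAUuauugcuccugacc

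The Mir335 row was 6.21, 5.97 and 5.80 in controls and 6.02, 5.85 and 5.79 in mutants, with each mutant slightly below its littermate and overlapping groups, and was among the dimmest 30% of genes. Its difference was -0.11 ± 0.08 (adjusted p = 0.662). The row may read the precursor or the host transcript, and says nothing of the mature microRNA. Mir483, within the span of Igf2, stood at -0.08 ± 0.10 (adjusted p = 0.812).

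Ndn encodes necdin, a protein of neurons and of some mesenchymal cells that restrains cell division. It was 9.46, 9.04 and 9.17 in controls and 8.83, 9.30 and 9.08 in mutants, so the groups overlapped over most of their range. The differences were -0.62, 0.26 and -0.09 in litters 1 to 3, and the estimate of -0.15 ± 0.15 did not pass (adjusted p = 0.761). Of 4 measured genes beside Ndn 0 passed in limma, also at an unadjusted p under 0.05 (0 of 4). Peg12 differed by -0.54, 0.07 and -0.17 in litters 1 to 3, and Magel2, a relative of Ndn that was among the dimmest 30% of genes, by -0.32, 0.25 and -0.03. These signs are those of Ndn in each litter, whereas Atp10a (0.02, -0.15 and -0.15) and Mkrn3 (-0.15, 0.02 and 0.09) did not share them. Over 9 enteric neuron and glia genes the median difference was -0.28, 0.05 and 0.07. They varied among themselves, and 0 of 9 passed. Those with the smallest p were Gfap, a glial gene (0.43, 0.05 and 0.19), Sox10 (-0.32, 0.01 and -0.10) and S100b (-0.22, -0.07 and -0.01). Gfap and S100b were among the dimmest 30% of genes. Named after their values were seen were Nos1 (-0.83, 0.45 and 0.07), Uchl1 (-0.71, 0.28 and 0.12), Elavl4 (-0.28, 0.42 and -0.03) and Ret (0.06, 0.02 and -0.10). In the fit with Xist the Ndn estimate was -0.29 ± 0.09 (adjusted p = 0.156), and the part of neurons in these differences was not tested.

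**Figure D2:**
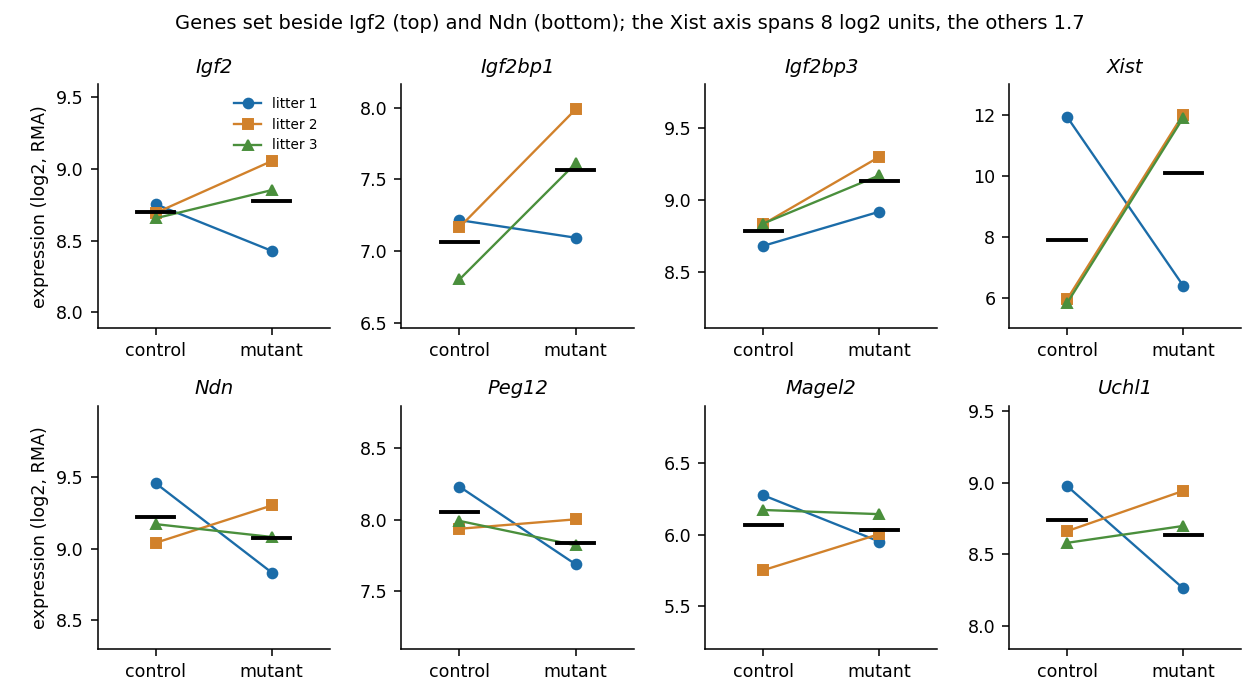
Expression (log2, vertical axis) in control and mutant colon of Igf2 and of Igf2bp1, Igf2bp3 and Xist in the top row, and of Ndn, Peg12, Magel2 and the neuronal gene Uchl1 in the bottom row, with 1 point per array, littermates joined and bars at group means. In litter 1 Igf2, Igf2bp1, Xist and all 4 genes of the bottom row are lower in the mutant, and in litter 2 all 8 genes are higher in the mutant.

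**Figure D3:**
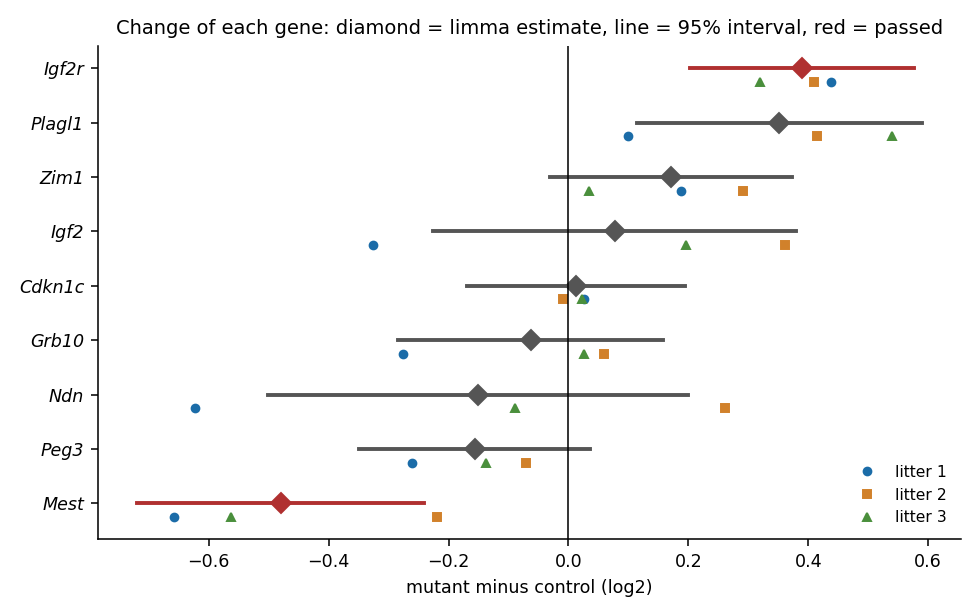
Mutant minus control on the log2 scale (horizontal axis) for the 9 measured genes, with diamonds for the limma estimates, lines for their 95% intervals and small points for the 3 litters. Red marks the 2 genes that passed, Igf2r at 0.39 and Mest at -0.48; Plagl1 has an interval above 0 (0.11 to 0.59) before adjustment over all genes.

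The list of other insulin-like growth factor genes, chosen like the members with earlier results of these data known, held 27 measured genes, of which 2 rose, 2 fell and 23 did not pass. That is 14.8%, against 3.77% of all genes, with a median change of -0.03, and 0 to 8 passed under 13 other settings. Pappa2, a protease that cuts binding proteins and so frees the growth factors, rose most: 6.93, 6.76 and 6.92 in controls and 7.75, 7.94 and 7.73 in mutants (0.94 ± 0.10, adjusted p = 0.00355). Insrr, an orphan relative of the insulin receptor that senses alkaline pH, rose by 0.70 ± 0.10 (adjusted p = 0.0129). Igfbp2, a binding protein, was 9.20, 8.77 and 8.80 in controls and 7.90, 7.77 and 8.46 in mutants and fell by 0.88 ± 0.16 (adjusted p = 0.0282). Grb14, an adaptor of the same family as Grb10, fell by 0.49 ± 0.08 (adjusted p = 0.0183), whereas Grb10 did not pass.

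Igf1, the other ligand, was 8.08, 8.11 and 8.25 in controls and 8.40, 8.42 and 8.50 in mutants. The groups did not overlap, and the difference of 0.29 ± 0.08 did not pass (adjusted p = 0.101). Igf1r, the receptor that signals for both ligands, stood at -0.03 ± 0.09 (adjusted p = 0.923). Of the RNA-binding proteins that bind Igf2 mRNA, Igf2bp3 differed by 0.24, 0.47 and 0.34 in litters 1 to 3 (0.35 ± 0.09, adjusted p = 0.0747). Igf2bp1 differed by -0.12, 0.82 and 0.81, with the same sign as Igf2 in each litter, and did not pass (0.50 ± 0.18, adjusted p = 0.213). In the fit with Xist, Igf2bp1 stood at 0.33 ± 0.07 (adjusted p = 0.0552).

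The clusters around the members held 49 measured neighbours of 67 named, of which 2 rose, 1 fell and 46 did not pass (6.12%, against 3.77% of all genes). The 3 that passed lie in the cluster of Igf2 and Cdkn1c. Kcnq1, a potassium channel gene in whose span the imprinting control region of Cdkn1c lies, was 8.47, 8.72 and 8.73 in controls and 9.07, 9.18 and 9.14 in mutants (0.49 ± 0.08, adjusted p = 0.0209). Tnfrsf23, a decoy receptor gene, rose by 0.48 ± 0.08 (adjusted p = 0.0199). Ascl2, a transcription factor of intestinal stem cells, was 7.30, 7.44 and 7.48 in controls and 7.01, 6.84 and 6.81 in mutants and fell by 0.53 ± 0.10 (adjusted p = 0.0286). The interval of Cdkn1c, in the same cluster, ran from -0.17 to 0.19.

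**Figure D4:**
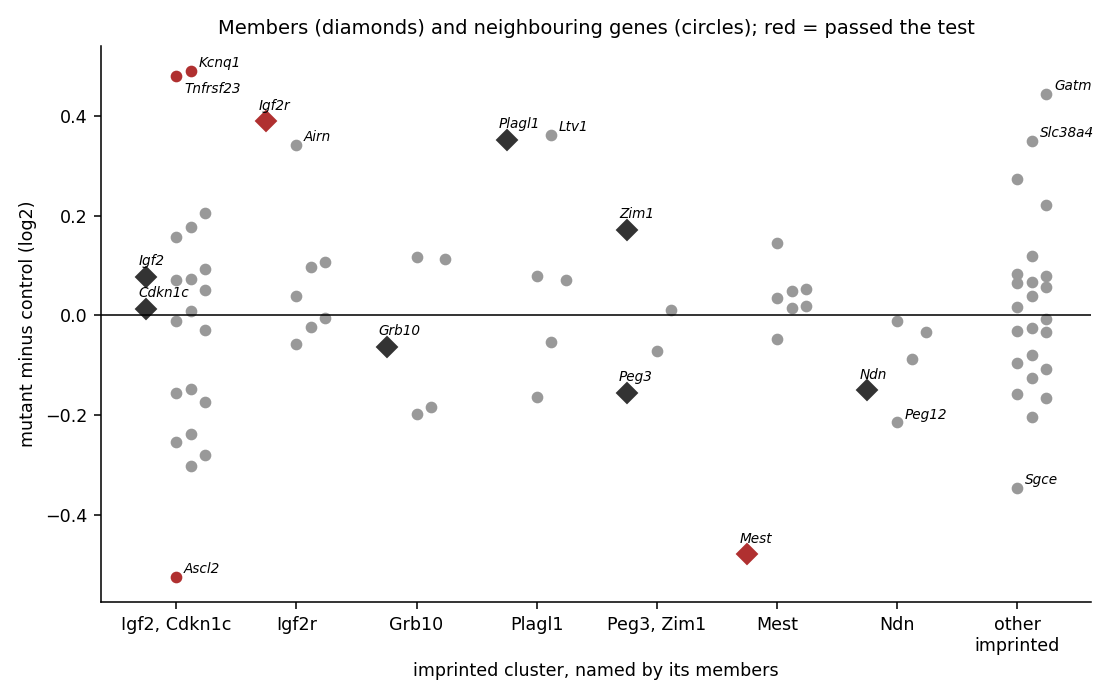
Mutant minus control on the log2 scale (vertical axis) for the members (diamonds) and the measured neighbours in each imprinted cluster (circles), with other imprinted genes at the right; red marks genes that passed. Mest lies below all its neighbours at -0.48, Igf2r lies next to Airn (0.39 and 0.34), and Kcnq1, Tnfrsf23 and Ascl2 are the neighbours that passed.

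Of 24 measured imprinted genes elsewhere in the genome, 0 passed in limma and 0 to 2 passed under 13 other settings. In limma 6 of the 24 had an unadjusted p under 0.05, against 3008 of all 19938 genes. Those with the smallest p were Sgce, epsilon-sarcoglycan, at -0.35 ± 0.08 (adjusted p = 0.0578), Slc38a4, an amino acid transporter, at 0.35 ± 0.08 (0.0664), and Gatm, an enzyme of creatine synthesis, at 0.44 ± 0.12 (0.0945). In the imprinted Dlk1-Dio3 locus, 3 of 5 measured genes rose: Dlk1 by 1.31 ± 0.15, Rian by 1.02 ± 0.09 and Meg3 by 0.98 ± 0.08, and the difference between that locus and these genes was not tested.

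**Figure D5:**
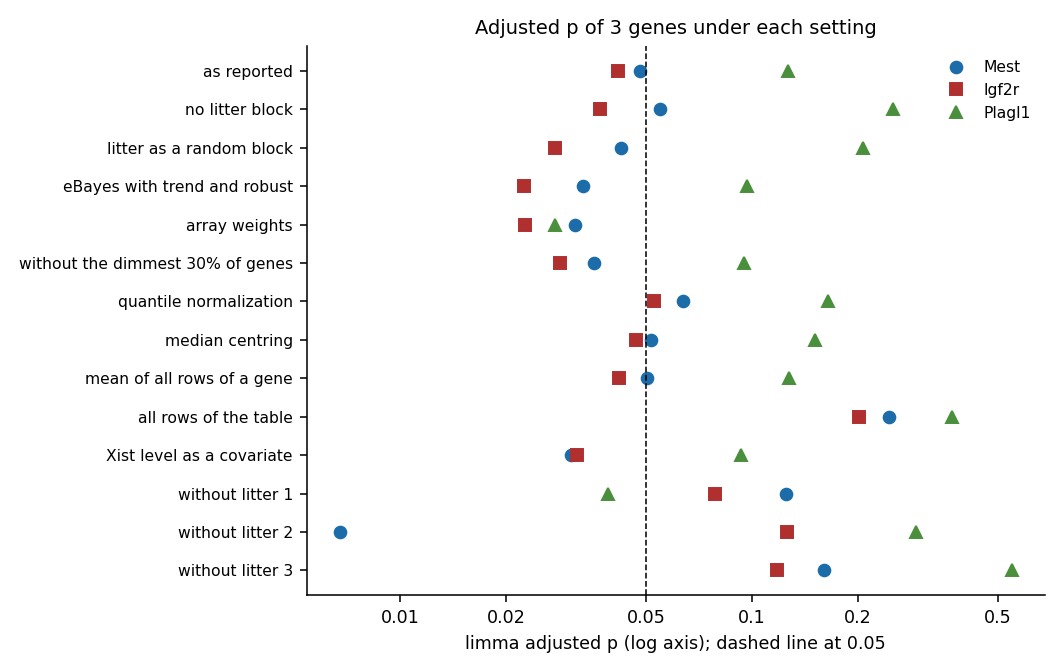
Limma adjusted p (horizontal log axis, dashed line at the threshold of 0.05) of Mest, Igf2r and Plagl1 as reported and under 13 other settings (vertical axis). Igf2r and Mest lie on either side of the threshold depending on the setting, and Plagl1 falls below it with array weights (0.0275) and without litter 1 (0.0389).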

How the data were processed

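Total RNA of whole colon from 6 mice had been hybridised to Affymetrix arrays. The values are log2 expression deposited by the authors, made with RMA per the submitters' processing notes; for its version and the build of the probes, the entry is: not given in the sources used here. That table held 35557 rows, of which 21789 had 1 gene symbol in the platform's annotation, 1621 had several and 12147 were unnamed here. The row with the highest mean was kept for each of 19938 genes.

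The 2 genotypes were compared by limma, version 3.58.1 under R version 4.3.3 (two-sided, lmFit then eBayes, Benjamini-Hochberg), with the litter as a fixed block because the design text names littermates. Across genes, littermates' deviations from the mean of their group had correlations of 0.0128, 0.00516 and 0.0613, so the pairing comes from the labels. Precision is limited by 3 arrays per group, and each mouse is a separate animal. No list was tested. The members and lists were chosen with earlier results of these data known. Genes named are the members, up to 3 genes with the smallest p in a list (2 for neighbours) and every call where a list had 5 or fewer, with Ihh, Ptch1, Igf1, Igf1r and Igf2bp1 to Igf2bp3; others were named after their values were seen. Igf2bp2 had no row with 1 symbol. Scripts were tested on simulated data. The 13 alternatives are described in the closing section.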

Additional observations from a re-analysis of the deposited data

How the results depend on the processing

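Of the 9 members, 2 passed as reported, 1 higher and 1 lower. The count was 1 (1 higher, 0 lower) without the replicate block, with median centring and with a gene's rows averaged, 3 (2 higher) with array weights, and 0 (0 higher, 0 lower) with quantile normalization and with all rows tested. Leaving out 1 litter gave 0 to 1 members, 0 to 1 higher and 0 to 1 lower. The higher one was Plagl1, without litter 1, and the lower one was Mest, without litter 2. Igf2r passed in none of these fits. The 751 genes called in all became 638 without the replicate block, 1246 with array weights, 1230 with Xist as a covariate and 2 with all 35557 rows. The random block, eBayes with trend and robust, the Xist covariate and leaving out the dimmest 30% of genes kept 2 members. Mest and Igf2r kept their direction in all 13 alternatives. Mest had an adjusted p of 0.0547 without the block, 0.0637 with quantile normalization, 0.0517 with median centring, 0.0501 with the mean of all rows and 0.246 with all rows; Igf2r had 0.0526 with quantile normalization and 0.202 with all rows. The cause of these losses was not tested. The sign of the members without a call varied for Igf2 (-0.06 to 0.28), Grb10 (-0.12 to 0.04) and Ndn (-0.36 to 0.09). No background level came with the arrays.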

Other observations

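Genes whose differences in the 3 litters were nearest to those of Mest were Tspan18, a tetraspanin gene (root mean square distance 0.0247 on the log2 scale), Satb1, a chromatin organiser (0.0639), and Map1b, a microtubule-associated protein of neurons (0.0792). Those nearest to Igf2r were Atoh1, the transcription factor of secretory epithelial cells (0.0140), Vmn2r68, a vomeronasal receptor gene among the dimmest 30% (0.0228), and Pim3, a kinase gene (0.0240). Within a distance of 0.2 lay 179 genes for Mest and 733 for Igf2r, so nearness over 3 litters singles out few of them.

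Markers of neighbouring tissues, of mesothelium and of pericytes were also measured. Of 6 liver genes 0 passed in limma and 1 had an unadjusted p under 0.05, Ttr, transthyretin, at -0.66 (adjusted p = 0.0554). Liver estimates were below 0 for 4 genes and above 0 for 2. Of 7 skeletal muscle genes 0 passed in limma and 2 had an unadjusted p under 0.05. These were Ckm, muscle creatine kinase (-0.35, adjusted p = 0.0711), and Tnnt3 (-0.28). In this list 4 estimates were above 0 and 3 below. Of 6 mesothelium genes 0 passed in limma and 2 had an unadjusted p under 0.05, Lrrn4 (0.27) and Wt1 (0.36). The mesothelium estimates were above 0 for 5 genes and below 0 for 1. Of 4 pancreas genes 0 passed, also at an unadjusted p under 0.05 (0 of 4). In the pericyte list 1 of 6 genes passed, Rgs5, which fell (-0.51), with 4 estimates below 0 and 2 above.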
